A study of Homo sapiens with 21 samples.

Results

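Genes that differed between MDA-MB-453 cells given diethylstilbestrol (DES) before cadmium and cells given cadmium alone are described here. The comparison used 6 of the 21 libraries, 3 for DES with cadmium and 3 for cadmium, and the 14660 of 58735 genes whose mean FPKM over these 6 libraries was at least 0.5. The line, wild type in all groups, comes from a human breast cancer with luminal features. Both groups received cadmium at 10 μM for 24 h, and DES at 10 μM came 3 h earlier in the DES with cadmium group. Cells of both groups were in phenol red-free medium with charcoal-stripped serum, lowered to 1% for the cadmium treatment. DES was dissolved in ethanol, and whether the cells with cadmium alone received ethanol is not stated. For reference, values are also given from 3 control libraries, from 3 libraries with DES alone (10 μM, 24 h) and, more briefly, from DES with calcium against calcium. Calcium was at 10 mM for 24 h in both of these groups, and DES at 10 μM came 3 h earlier in the first. A single control group is described, so that the serum in the medium may have differed between the cadmium groups and the groups without cadmium, and this cannot be told apart from cadmium. No source says that replicates were separate cultures, so the p-values below measure the spread between these libraries, which may be technical.

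DES is a synthetic estrogen that also binds the estrogen-related receptors and lowers their activity, and the study used it as an inhibitor of ESRRB. Cadmium is a toxic metal that binds thiol groups. Cells are known to answer it through the metal-responsive factor MTF1, which drives the metallothionein genes, through NRF2, which drives genes of glutathione and thioredoxin metabolism, and through HSF1, which drives the heat shock genes. The question of the comparison is what DES did to transcript levels in cells that also received cadmium.

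Promoter windows of 5 genes described below are shown because they carry the short elements by which these pathways are known. Each window runs from 250 bases before to 50 bases after the annotated start, 5′ to 3′ on the strand of the gene, from RefSeq on GRCh38.p14, with matches in capitals. In HSPA8 (chr11:123062087-123062386, minus strand) and SERPINH1 (chr11:75562003-75562302, plus strand) the capitals mark GAANNTTC, a heat shock element. In MT2A (chr16:56608334-56608633, plus strand) they mark TGCACNC or TGCGCNC, the core of the metal response element. In TXNRD1 (chr12:104215529-104215828, plus strand) they mark TGACNNNGC, an antioxidant element, and in CDC20 (chr1:43358731-43359030, plus strand) TTTGAA, the CHR element of mitotic genes.
HSPA8: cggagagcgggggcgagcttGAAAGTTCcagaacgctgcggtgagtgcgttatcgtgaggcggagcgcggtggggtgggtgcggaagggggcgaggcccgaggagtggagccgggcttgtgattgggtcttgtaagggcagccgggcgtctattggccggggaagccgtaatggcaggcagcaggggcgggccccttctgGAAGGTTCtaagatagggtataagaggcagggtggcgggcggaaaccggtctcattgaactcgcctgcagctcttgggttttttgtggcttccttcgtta
SERPINH1: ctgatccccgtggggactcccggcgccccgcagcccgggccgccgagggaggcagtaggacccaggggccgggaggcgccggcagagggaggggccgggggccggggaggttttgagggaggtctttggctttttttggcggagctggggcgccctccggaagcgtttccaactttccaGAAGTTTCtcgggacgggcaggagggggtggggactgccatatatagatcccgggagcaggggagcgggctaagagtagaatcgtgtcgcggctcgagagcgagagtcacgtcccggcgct
MT2A: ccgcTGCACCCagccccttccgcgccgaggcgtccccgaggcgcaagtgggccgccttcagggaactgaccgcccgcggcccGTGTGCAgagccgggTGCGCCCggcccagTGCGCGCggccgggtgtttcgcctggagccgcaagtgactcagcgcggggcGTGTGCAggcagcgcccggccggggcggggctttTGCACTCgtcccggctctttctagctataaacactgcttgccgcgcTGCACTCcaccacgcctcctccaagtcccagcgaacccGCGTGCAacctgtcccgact
TXNRD1: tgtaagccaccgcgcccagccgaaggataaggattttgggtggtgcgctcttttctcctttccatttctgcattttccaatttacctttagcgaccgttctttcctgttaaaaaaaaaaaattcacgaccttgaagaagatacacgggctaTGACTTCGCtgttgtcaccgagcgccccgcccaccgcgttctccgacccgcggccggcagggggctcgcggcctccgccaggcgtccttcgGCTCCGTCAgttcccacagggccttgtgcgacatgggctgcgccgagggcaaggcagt
CDC20: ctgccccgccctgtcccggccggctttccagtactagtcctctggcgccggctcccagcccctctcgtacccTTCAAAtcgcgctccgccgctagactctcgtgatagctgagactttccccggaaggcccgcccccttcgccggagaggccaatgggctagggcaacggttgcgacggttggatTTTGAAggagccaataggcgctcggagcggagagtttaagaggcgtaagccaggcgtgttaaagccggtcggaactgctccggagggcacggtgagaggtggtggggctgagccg
Both strands were searched, and neighbouring matches may overlap. HSPA8 held 2 heat shock elements, SERPINH1 held 1, MT2A held 8 metal response cores, TXNRD1 held 2 antioxidant elements and CDC20 held 2 CHR elements. Of all 27305 windows, 6.87% held the heat shock element, 29.3% the metal response core, 13.6% the antioxidant element and 15.4% the CHR element. The heat shock element lay in 10 of the 26 heat shock genes with a window, the metal response core in 5 of 5 metallothionein genes, the antioxidant element in 7 of 25 NRF2 target genes and the CHR element in 29 of 42 genes of G2/M. A match describes the letters and is not a measured binding site.

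Fragments on genes numbered 14435925 to 23219029 per library. Several libraries stood apart from others of their group. In replicate 3 of cadmium and replicate 2 of DES with cadmium the transcripts of mitosis were nearly absent. CDC20, an activator of the anaphase-promoting complex, read 55.9, 55.3 and 0.328 FPKM with cadmium and 170.1, 1.31 and 74.2 FPKM with DES and cadmium (replicates 1, 2 and 3 in this order, as in all values below). UBE2C, a ubiquitin-conjugating enzyme of mitotic exit, read 56.8, 65.6 and 0.426 FPKM with cadmium and 182.5, 3.42 and 131 FPKM with DES and cadmium. In both genes a cadmium library and a DES with cadmium library were low, and the groups overlapped. Replicate 1 of DES with cadmium had the fewest genes with a fragment, 16605 against 22715 to 31147 in the other 5 libraries, and a library size in the deposited FPKM of 0.693 times its fragments on genes, against 0.933 to 1.125 in the others. Within groups, the SD of genes on the log2 scale had a median of 0.521 with DES and cadmium, 0.352 with cadmium, 0.349 with DES and 0.215 in the control (n = 3 each). Transcripts of the luminal line were present: KRT8, KRT18 and KRT19 ranged from 184 to 1320 FPKM in the 6 libraries. EPCAM ranged from 50.9 to 120 FPKM, ERBB2 from 99.4 to 136, GATA3 from 120 to 180 and FOXA1 from 57.4 to 223. Means were lower with DES and cadmium in FOXA1 (65.3 against 150 FPKM) and GATA3 (145 against 153 FPKM) and higher in the other luminal markers given here. Of the fibroblast markers COL1A1 read 9.69 to 28.3 FPKM and the other 5 at most 0.0893 FPKM, the 6 leukocyte markers read at most 0.292 FPKM and the 4 endothelial markers at most 0.0627 FPKM.

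Of the 14660 genes tested, 1695 (11.6%) were called at a Benjamini-Hochberg adjusted p under 0.05 by limma on log2(FPKM + 0.1), 810 higher (5.53%) and 885 lower (6.04%) with DES. These shares stand as background for the lists below, whose share called is given in parentheses beside each count. The groups did not overlap for 5978 genes (40.8%), and 4894 genes had an unadjusted p under 0.05. Over all tested genes 46.5% of the fold changes were positive. Of the genes that passed the filter, 1403 had a mean under 0.5 FPKM with DES and cadmium and 591 with cadmium alone. The filter fixed the direction of their means, and their part in the 885 falls and 810 rises was not counted. With a mean of at least 2 FPKM required, 829 of 9886 genes were called higher and 577 lower. With the filter as used, the smallest adjusted p was 0.0081. The count rested on single libraries. Without replicate 1 or replicate 2 of cadmium 0 genes were called, with 4249 and 3060 at an unadjusted p under 0.05. Without replicate 3 of cadmium 5 were called and without replicate 3 of DES with cadmium 10, while 1378 were called without its replicate 1 and 1484 without its replicate 2. Without replicate 3 of cadmium and replicate 2 of DES with cadmium together, a choice made after seeing the data, 18 were called. In every gene list described below 0 members were called without that pair, without any single cadmium library and without replicate 3 of DES with cadmium. All 1695 genes kept the sign of their fold change with each library left out. Fold changes are given on the log2(FPKM + 0.1) scale, which understates those of low genes. Members named only to complete the count of a list were chosen after their values were seen. In bulk samples fewer cells of a type and less RNA per cell cannot be told apart. With scaling by total fragments on genes, the median log2 fold change of all genes moved from -0.10 to -0.41, and 24.5% of the calls were higher (425 of 1734) in place of 47.8%.

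**Figure D1:**
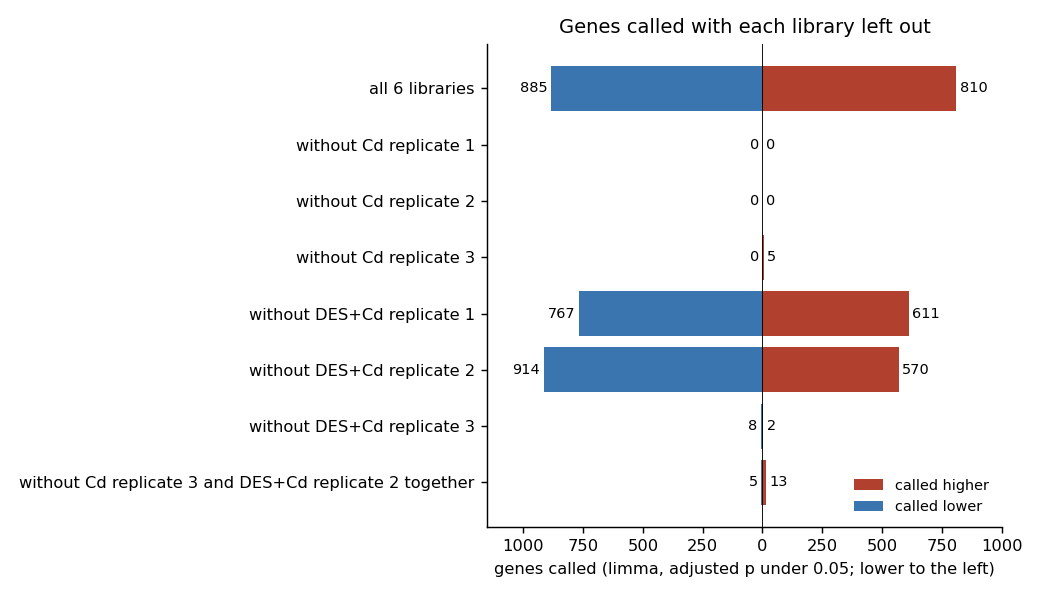
Genes called higher (red, to the right) and lower (blue, to the left) in DES with cadmium against cadmium, with all 6 libraries and with libraries left out. The counts of 810 and 885 fell to between 0 and 8 in each direction without any cadmium library or without replicate 3 of DES with cadmium.

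The largest rises among protein-coding genes of at least 200 bases included RGS16, HES7, SERPINH1, RAB3A and RND1. RGS16, which speeds the GTPase of G alpha subunits, read 1.68, 5.63 and 9.33 FPKM with cadmium and 386, 104.5 and 492 FPKM with DES and cadmium. The groups were far apart, and the log2 fold change was 5.89 ± 0.76 (SE, limma adjusted p = 0.0231). RGS16 is gene ENSG00000143333 on GRCh38.p14, chr1:182598623-182604408, minus strand. RGS2, of the same family, read 1.1, 2.44 and 3.34 FPKM with cadmium and 17.6, 11.3 and 48.4 FPKM with DES and cadmium, a log2 fold change of 3.29 ± 0.60 (SE, limma adjusted p = 0.0294). Of the 8 genes tested with an RGS symbol, a set chosen after its values were seen, 3 rose (RGS16, RGS2 and RGS10) and 0 fell, and 7 of the 8 fold changes were positive, beside 5.53% of all genes called higher and 46.5% positive. RGS17P1, a positive member that was not called, passed the filter only through the DES with cadmium libraries and so had to read higher.

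RAB3A, a GTPase of regulated exocytosis, had the smallest adjusted p together with RND1. It read 8.59, 9.09 and 9.14 FPKM with cadmium and 125, 86.8 and 123 FPKM with DES and cadmium, so that the 3 libraries of each group lay close together (log2 fold change 3.61 ± 0.24 SE, limma adjusted p = 0.0081). RAB3A is gene ENSG00000105649 on GRCh38.p14, chr19:18196784-18204074, minus strand. RND1, a small GTP-binding protein without GTPase activity, read 6.2, 6.69 and 4.24 FPKM with cadmium and 76, 63 and 66.5 FPKM with DES and cadmium (log2 fold change 3.58 ± 0.26 SE, limma adjusted p = 0.0081). VPS37D, a subunit of the ESCRT-I complex, read 2.98, 2.57 and 3.25 FPKM with cadmium and 42.7, 21.4 and 45.5 FPKM with DES and cadmium. For all 3 genes every library with DES was above every library without.

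SERPINH1, the collagen chaperone of the endoplasmic reticulum whose promoter is shown above, read 14.7, 26.2 and 72.7 FPKM with cadmium and 831, 238 and 678 FPKM with DES and cadmium (log2 fold change 4.07 ± 0.68 SE, limma adjusted p = 0.0275). HES7, a basic helix-loop-helix repressor, read 0.795, 0.789 and 2.05 FPKM with cadmium and 12, 23.4 and 35 FPKM with DES and cadmium. NUDT16L1, an RNA-binding protein that holds the DNA repair factor TP53BP1, read 38.7, 36.9 and 49.3 FPKM with cadmium and 623, 171 and 667 FPKM with DES and cadmium. In SERPINH1 and NUDT16L1 replicate 2 was the lowest of the DES libraries and still above all cadmium libraries. The other named rises rest on few or ambiguous fragments. OMP, the olfactory marker protein, had 0, 1 and 0 fragments with cadmium and 16, 10 and 32 with DES and cadmium, a pooled ratio of 66.3 (95% counting interval 11.4 to 2660). It passed the filter only through the DES with cadmium libraries, where it is high, and so had to differ. RNF103-CHMP3, a readthrough that shares exons with its neighbours, read 0.256, 0.85 and 3.16 FPKM with cadmium and 9.27, 15.4 and 13.7 FPKM with DES and cadmium.

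**Figure D2:**
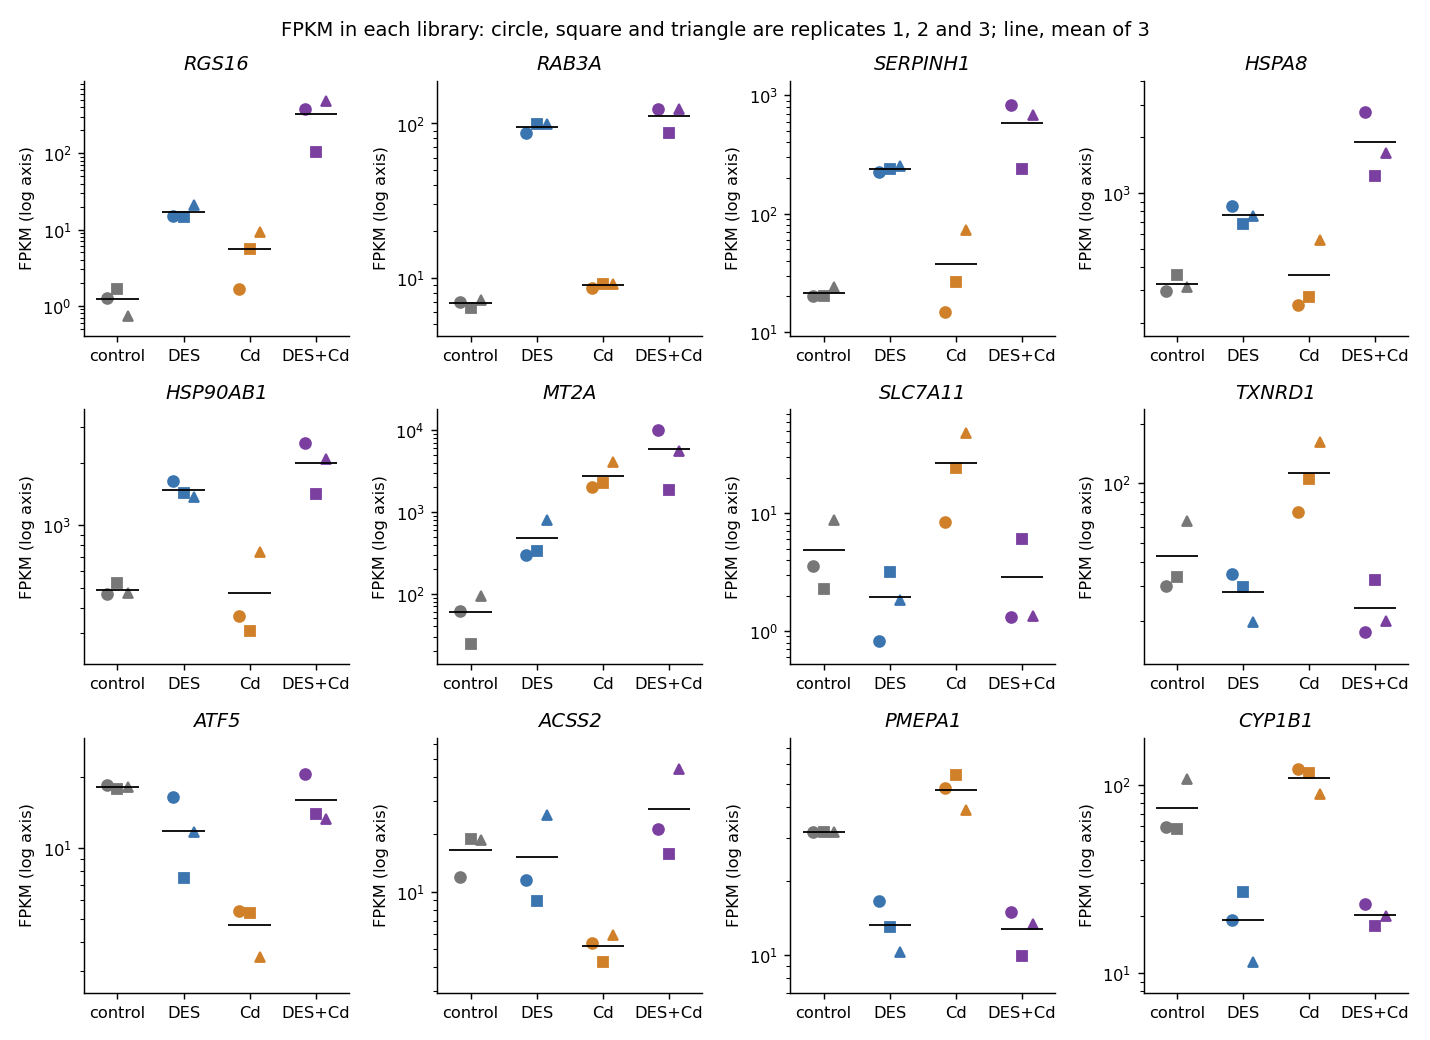
FPKM on a log axis in each of 3 replicates of control, DES, cadmium (Cd) and DES with cadmium (DES+Cd) for 12 genes, with the mean as a line. In all genes but MT2A the 3 DES+Cd libraries lie wholly above or wholly below the 3 Cd libraries, and in SERPINH1, HSPA8 and SLC7A11 the Cd libraries themselves spread widely.

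The largest falls were in genes that read low in the DES with cadmium libraries. EGR4, BBS10, SYT11, PCDHA12, C3orf18 and PSCA passed the filter only through the cadmium libraries, where they are high, so that they had to differ and their calls are no support. EGR4, an immediate early zinc finger factor, read 1.5, 7.09 and 7.47 FPKM with cadmium and 0.105, 0.121 and 0.116 FPKM with DES and cadmium (log2 fold change -4.38 ± 0.66 SE). GALR2, a receptor of the neuropeptide galanin, read 14.2, 17.3 and 12.9 FPKM with cadmium and 1.73, 0.37 and 1.37 FPKM with DES and cadmium (log2 fold change -3.77 ± 0.51 SE, limma adjusted p = 0.0269). EGR4 is gene ENSG00000135625 on GRCh38.p14, chr2:73290929-73293705, minus strand. C1GALT1C1, the chaperone of the enzyme that extends O-linked glycans, read 9.98, 9.53 and 8.11 FPKM with cadmium and 0.975, 0.808 and 1.11 FPKM with DES and cadmium, the tightest of these groups (log2 fold change -3.13 ± 0.27 SE, limma adjusted p = 0.0151). NANOS1, an RNA-binding repressor of translation, read 11.5, 11.4 and 15 FPKM with cadmium and 1.16, 2.12 and 0.329 FPKM with DES and cadmium. No library of the groups overlapped in these 4 genes.

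SLC7A11, the cystine and glutamate exchanger, fell as well and is described with the oxidative stress genes. BBS10, a chaperonin-like protein of the Bardet-Biedl group, read 3.23, 3.84 and 5.69 FPKM with cadmium and 0.0346, 0.562 and 0.659 FPKM with DES and cadmium. SYT11, of the synaptotagmin family, read 1.18, 4.64 and 2.52 FPKM with cadmium and 0, 0.33 and 0.0946 FPKM with DES and cadmium. PCDHA12, a protocadherin whose 3′ exons are shared within its cluster, read 1.5, 3.12 and 2.62 FPKM with cadmium and 0.0912, 0.251 and 0.162 FPKM with DES and cadmium. The rest of this group were equally separated: C3orf18 read 2.27, 3.5 and 2.87 FPKM with cadmium and 0.306, 0.222 and 0.237 FPKM with DES and cadmium, and PSCA, a surface antigen, had 34, 88 and 84 fragments with cadmium against 1, 2 and 2 with DES (cadmium over DES with cadmium, pooled ratio 36.1, 95% counting interval 15.2 to 112).

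Of the heat shock genes, chaperones and their regulators, 23 of 28 had a positive fold change, beside 46.5% of all genes. Of 28 heat shock genes tested, 3 rose and 0 fell (10.7% called), with a median log2 fold change of 0.99 (0.60 to 1.00 with 3 other scalings), and 12 had an unadjusted p under 0.05. The share called is near the 11.6% of all genes. HSPA8, the constitutive HSP70, read 249, 277 and 559 FPKM with cadmium and 2739, 1234 and 1648 FPKM with DES and cadmium (log2 fold change 2.39 ± 0.47 SE, limma adjusted p = 0.0312). HSP90AB1, the constitutive HSP90, read 365, 307 and 743 FPKM with cadmium and 2515, 1413 and 2100 FPKM with DES and cadmium (log2 fold change 2.16 ± 0.46 SE, limma adjusted p = 0.0346). HSF1, the factor that drives the group, read 31.9, 39.4 and 43.6 FPKM with cadmium and 87.5, 84 and 66.7 FPKM with DES and cadmium (log2 fold change 1.05 ± 0.25 SE, limma adjusted p = 0.0416).

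HSPA6, DNAJB1 and HSPH1, inducible heat shock genes, did not pass the test, and the cadmium libraries differed strongly among themselves in them. All 3 were chosen after their values were seen. HSPA6 read 42.4, 300.3 and 947 FPKM with cadmium and 4099, 1468 and 2837 FPKM with DES and cadmium (log2 fold change 3.49 ± 1.05 SE, limma adjusted p = 0.0683). DNAJB1, a partner of HSP70, read 62.4, 191.5 and 762 FPKM with cadmium and 3353, 790.2 and 1603 FPKM with DES and cadmium (limma adjusted p = 0.0752). HSPH1, an exchange factor of HSP70, read 25.7, 89.4 and 415 FPKM with cadmium and 154, 124 and 293 FPKM with DES and cadmium (limma adjusted p = 0.54). In each of the 3 genes replicate 3 was the highest cadmium library and replicate 1 the lowest, and the groups overlapped in HSPH1 only. The level of the whole list, as the median log2 difference from the control mean, was 0.12, 0.44 and 1.99 in the cadmium libraries and 1.71, 1.64 and 2.09 in those with DES and cadmium. The HSPA genes share near-identical stretches, so that their separate levels are uncertain. Against control, in libraries that the comparison does not share, DES alone raised 22 of the 28 genes, beside 15.5% of all genes called higher there, with a median log2 fold change of 1.40.

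The abundant metallothioneins, small cysteine-rich proteins that bind zinc and cadmium, were above control in both groups and varied widely between the DES with cadmium libraries. Of 10 metallothionein genes tested, 1 rose and 0 fell (10% called), with a median log2 fold change of 1.80 (1.54 to 2.02 with 3 other scalings). The median was 1.07 without replicate 1 of cadmium, 1.29 with a pseudocount of 1 and 3.21 with library weights. Of the 10, 4 passed the filter only through the DES with cadmium libraries, the called member among them, so that they had to read higher. The other 6 had 0 calls and a median of 0.76. MT2A read 2001, 2288 and 4088 FPKM with cadmium and 10180, 1840 and 5493 FPKM with DES and cadmium, against a control mean of 59.6 ± 34.4 FPKM (SD, n = 3). The log2 fold change came to 0.82 ± 0.70 (SE, limma adjusted p = 0.439). MT1E read 414, 466 and 739.7 FPKM with cadmium and 1433, 97.2 and 444 FPKM with DES and cadmium, MT1F 352, 437 and 565 FPKM with cadmium and 1922, 127 and 691 FPKM with both, and MT1X 172, 174.5 and 289 FPKM with cadmium and 1551, 78.3 and 302 FPKM with both. In all 4 genes replicate 1 of DES with cadmium was the highest of the 6 libraries and replicate 2 the lowest, so that the groups overlapped.

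The less abundant metallothioneins were highest in replicate 3 of DES with cadmium. MT1B read 3.76, 10.9 and 7.69 FPKM with cadmium and 105, 8.16 and 139 FPKM with DES and cadmium, MT4 0.748, 5.68 and 4.55 FPKM with cadmium and 19.2, 0.245 and 75.9 FPKM with both, and MT1G 0, 0.131 and 0.406 FPKM with cadmium and 0.497, 0 and 15.8 FPKM with both. MT1L, the pseudogene that made the call of the group, had 0, 1 and 0 fragments with cadmium and 5, 11 and 100 with DES and cadmium, a pooled ratio of 133 (95% counting interval 23.3 to 5280). Like MT1G, MT1H and MT1M it passed the filter only through the DES with cadmium libraries. MT1H had 0 fragments in the 3 cadmium libraries and 8, 1 and 115 with DES and cadmium, at least 13.9-fold higher when 3 fragments are set as the limit in each cadmium library. MT1M had 0, 0 and 2 fragments with cadmium and 0, 9 and 135 with DES and cadmium. Reads of these near-identical genes may have been split between them.

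Of 21 zinc and metal transport genes tested, 1 rose and 4 fell (23.8% called), with a median log2 fold change of -0.58 (-0.91 to -0.45 with 3 other scalings, under which 4 to 7 fell), beside 5.53% of all genes called higher and 6.04% lower. SLC39A10, a zinc importer of the cell surface, read 7.75, 11.7 and 13.1 FPKM with cadmium and 0.557, 1.65 and 2.04 FPKM with DES and cadmium (log2 fold change -2.99 ± 0.48 SE, limma adjusted p = 0.027). SLC39A1, another importer, read 5.03, 4.34 and 3.75 FPKM with cadmium and 0.55, 0.788 and 0.959 FPKM with DES and cadmium (log2 fold change -2.39 ± 0.33 SE, limma adjusted p = 0.0269). SLC30A6, which with SLC30A5 and SLC30A7 loads zinc into the secretory pathway, read 5.04, 5.42 and 5.68 FPKM with cadmium and 1.62, 1.65 and 1.53 FPKM with DES and cadmium (log2 fold change -1.69 ± 0.25 SE, limma adjusted p = 0.0269). SLC30A7 fell too, with a log2 fold change of -1.30 (limma adjusted p = 0.0381). SLC39A4, an importer, was the member that rose (log2 fold change 1.35, limma adjusted p = 0.0329). The importers among the called members did not share a direction.

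Of the NRF2 target genes, 14 of 24 had positive and 10 negative fold changes. Of 24 oxidative stress genes under NRF2 tested, 0 rose and 3 fell (12.5% called), with a median log2 fold change of 0.13 (-0.57 to 0.14 with 3 other scalings, under which 3 to 6 fell). SLC7A11 read 8.49, 24.2 and 47.7 FPKM with cadmium and 1.31, 6 and 1.33 FPKM with DES and cadmium (log2 fold change -3.22 ± 0.77 SE, limma adjusted p = 0.0418). TXNRD1, the thioredoxin reductase of the cytosol, read 71.2, 105 and 163 FPKM with cadmium and 17.6, 32.2 and 20.1 FPKM with DES and cadmium (log2 fold change -2.24 ± 0.38 SE, limma adjusted p = 0.0281). OSGIN1, an oxidative stress induced growth inhibitor, read 27.4, 52.8 and 63.3 FPKM with cadmium and 7.73, 10.2 and 3.72 FPKM with DES and cadmium (log2 fold change -2.74 ± 0.46 SE, limma adjusted p = 0.0279). In these 3 genes all libraries with DES were below all without, and the DES libraries were below the control mean in TXNRD1 (42.8 FPKM) and OSGIN1 (11.8 FPKM). In SLC7A11 replicate 2 was above the control mean of 4.87 FPKM and the others below it.

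GCLM, HMOX1 and NQO1, NRF2 targets named after their values were seen, did not pass. GCLM, the modifier subunit of glutathione synthesis, read 23.4, 34.4 and 63.8 FPKM with cadmium and 4.75, 18.1 and 7.33 FPKM with DES and cadmium (limma adjusted p = 0.0511). HMOX1, heme oxygenase, read 196, 816.5 and 2453 FPKM with cadmium and 740, 318 and 537 FPKM with DES and cadmium (limma adjusted p = 0.684), and NQO1, a quinone reductase, 462, 364 and 557 FPKM with cadmium and 1052, 666 and 317 FPKM with both (limma adjusted p = 0.568). GCLM was lower in every DES library, while HMOX1 and NQO1 overlapped. For DES against control the median log2 fold change of the NRF2 list was 0.18.

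Genes of the integrated stress response, which slows translation and drives amino acid supply through ATF4, were called about as often as all genes (11.6%). Of 31 integrated stress response genes tested, 1 rose and 2 fell (9.68% called), with a median log2 fold change of -0.18 (-0.52 to -0.17 with 3 other scalings, under which 2 to 4 fell). Leaving out replicate 1 of cadmium gave a median of -0.59. ATF5, a factor of this pathway, read 5.4, 5.31 and 3.46 FPKM with cadmium and 20.5, 13.9 and 13.2 FPKM with DES and cadmium (log2 fold change 1.73 ± 0.30 SE, limma adjusted p = 0.0284). Its control libraries read 18.4, 17.8 and 18.2 FPKM, above all cadmium libraries. SLC6A9, a glycine transporter, read 15.3, 20.6 and 19.3 FPKM with cadmium and 10.4, 8.68 and 6.98 FPKM with DES and cadmium (log2 fold change -1.08 ± 0.26 SE, limma adjusted p = 0.0423). The third member called was SLC7A11. Of 20 aminoacyl-tRNA synthetase genes tested, 1 rose and 0 fell (5% called), with a median log2 fold change of 0.32 (-0.08 to 0.33 with 3 other scalings), the rise being VARS, the valine enzyme, with 13.2, 9.64 and 10.6 FPKM with cadmium and 45.9, 35.6 and 26.2 FPKM with DES and cadmium. Of 28 ER unfolded protein response genes tested, 0 rose and 1 fell (3.57% called), with a median log2 fold change of -0.06 (-0.53 to -0.05 with 3 other scalings, under which 1 to 2 fell). The fall was in SEL1L, a part of the complex that clears misfolded proteins from the endoplasmic reticulum, with 26.4, 26.9 and 38.9 FPKM with cadmium and 12.2, 10.8 and 7.75 FPKM with DES and cadmium.

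Transcripts of the aryl hydrocarbon receptor, which senses planar aromatic compounds, and of its target CYP1B1 fell. Of 9 aryl hydrocarbon receptor genes tested, 0 rose and 2 fell (22.2% called), with a median log2 fold change of -1.57 (-1.81 to -1.40 with 3 other scalings). AHR, the receptor, read 3.54, 12.1 and 10.6 FPKM with cadmium and 0.569, 2.21 and 1.71 FPKM with DES and cadmium (log2 fold change -2.47 ± 0.62 SE, limma adjusted p = 0.0463). CYP1B1, a cytochrome P450 that oxidizes estrogens, read 121, 115 and 89.8 FPKM with cadmium and 23.3, 17.8 and 20 FPKM with DES and cadmium (log2 fold change -2.40 ± 0.25 SE, limma adjusted p = 0.016). The groups did not overlap in either gene, and the cadmium libraries spread more in AHR.

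Cytosolic ribosomal protein genes were the group with the highest share of calls. Of 75 cytosolic ribosomal protein genes tested, 46 rose and 0 fell (61.3% called), with a median log2 fold change of 1.33 (0.52 to 1.34 with 3 other scalings, under which 1 to 47 rose). This was 61.3% of the list, beside 5.53% of all genes called higher. RPL10 read 572, 470.1 and 441 FPKM with cadmium and 2596, 1219 and 1415 FPKM with DES and cadmium (log2 fold change 1.75 ± 0.40 SE, limma adjusted p = 0.0388). RPS26 read 61.6, 43.6 and 47.5 FPKM with cadmium and 413, 183 and 154 FPKM with DES and cadmium, and RPL29 213, 151 and 114 FPKM with cadmium and 1006, 343 and 463 FPKM with both. The groups did not overlap for 69 of the 75 genes, beside 40.8% of all genes, and replicate 1 of DES with cadmium was the highest library in these 3. Without that library 34 rose, with a median log2 fold change of 1.12. With quantile normalization 1 of the 75 rose, with a median of 0.52, while scaling by total fragments left 31. Without replicate 3 of cadmium and replicate 2 of DES with cadmium the median was 1.40 and 0 genes passed. DES alone raised 28 of them against control, beside 15.5% of all genes, and DES with calcium raised 72 against calcium, beside 18.5% (medians 0.81 and 1.26).

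Genes of the respiratory chain in the nucleus were called higher more often than all genes (5.53%), and 1 transcript of the mitochondrial genome was called lower. Of 36 nuclear respiratory chain genes tested, 11 rose and 0 fell (30.6% called), with a median log2 fold change of 0.88 (0.48 to 0.89 with 3 other scalings, under which 1 to 11 rose), and 35 of the 36 fold changes were positive. Among them NDUFA4, of complex IV, read 18, 9.83 and 28.2 FPKM with cadmium and 70.3, 62 and 44.2 FPKM with DES and cadmium (log2 fold change 1.75 ± 0.41 SE, limma adjusted p = 0.0397). UQCRQ, of complex III, read 60.2, 33.4 and 40.7 FPKM with cadmium and 173, 128 and 95 FPKM with DES and cadmium, and COX4I1, of complex IV, 32.5, 19.6 and 25.3 FPKM with cadmium and 121, 63.5 and 50.4 FPKM with both. With quantile normalization 1 of the 36 rose, and without replicate 2 of DES with cadmium 0 passed at a median of 0.86.

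Of 13 mitochondrial genome transcripts tested, 0 rose and 1 fell (7.69% called), with a median log2 fold change of -1.83 (-2.20 to -1.82 with 3 other scalings, under which 1 to 6 fell). All 13 fold changes were negative with all 6 libraries and with each library left out. MT-ND6, a subunit of complex I on the light strand, read 2368, 3223 and 3068 FPKM with cadmium and 1173, 222 and 529 FPKM with DES and cadmium (log2 fold change -2.47 ± 0.61 SE, limma adjusted p = 0.0449). MT-CO1, of complex IV and named after its values were seen, read 13750, 15610 and 16750 FPKM with cadmium and 10100, 2242 and 3563 FPKM with DES and cadmium (limma adjusted p = 0.108). Replicate 1 was the highest of the DES libraries in both, and its mitochondrial mRNA took 3.56% of the fragments against 0.783% and 1.56% in the others and 5.89% to 7.92% with cadmium. Without this replicate 9 of the 13 fell, with a median log2 fold change of -2.64, and without replicate 2 of DES with cadmium 0 passed at a median of -1.14. With total-fragment scaling 6 fell and with quantile normalization 5. DES alone lowered 6 of the 13 against control, beside 13% of all genes (median -1.40).

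**Figure D3:**
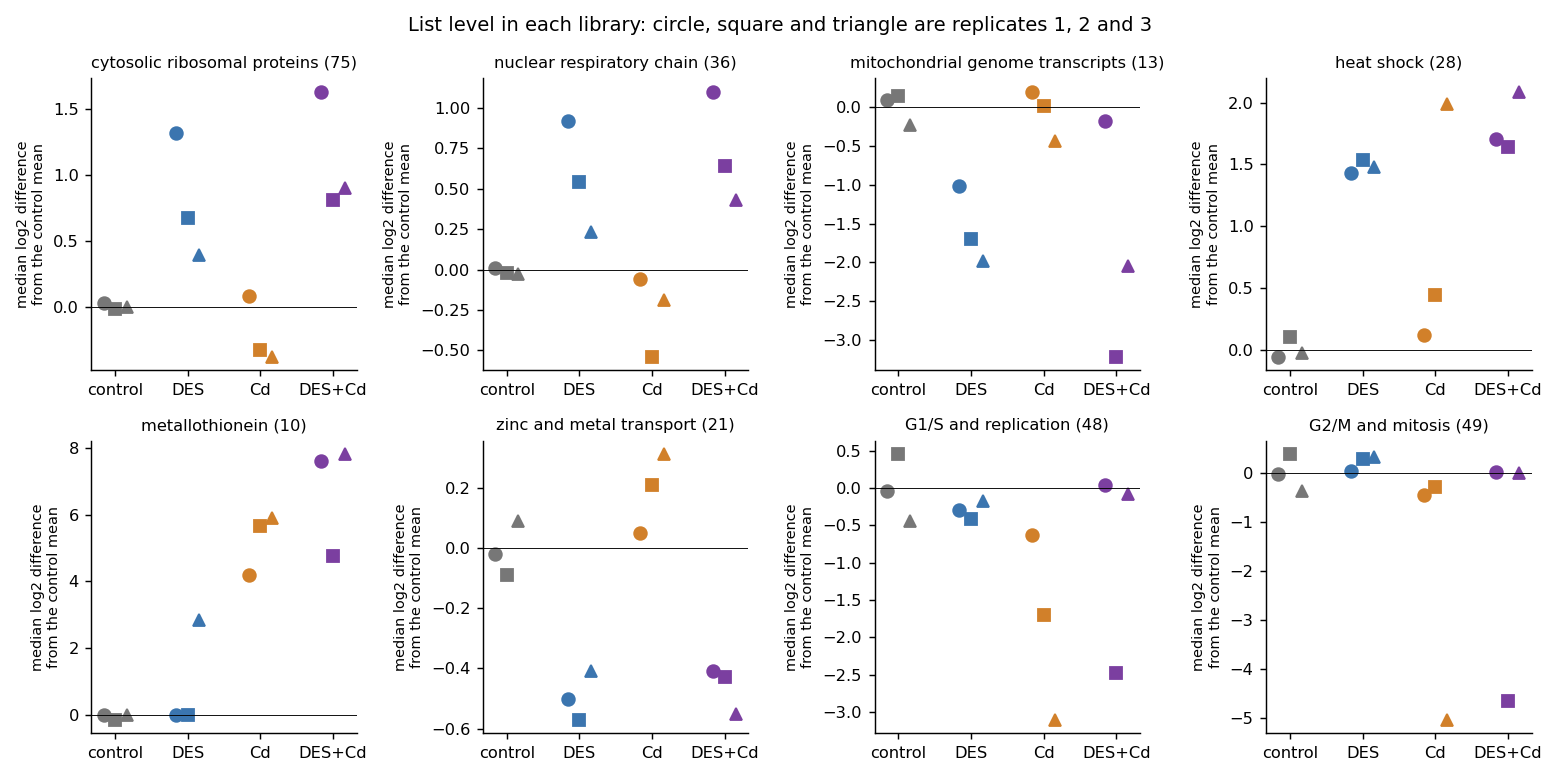
Level of 8 gene lists in each library, as the median over the genes tested of log2(FPKM + 0.1) minus the control mean, for control, DES, cadmium (Cd) and DES with cadmium (DES+Cd). Ribosomal and nuclear respiratory genes were higher in all DES+Cd than in all Cd libraries and zinc and metal transport lower, mitochondrial transcripts of replicate 1 of DES+Cd lay among the Cd libraries, and G2/M genes dropped to -5.04 in replicate 3 of Cd and -4.66 in replicate 2 of DES+Cd.

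Targets of the estrogen-related receptors in energy metabolism overlap with the respiratory chain. Of 30 metabolic targets of the estrogen-related receptors tested, 4 rose and 0 fell (13.3% called), with a median log2 fold change of 0.74 (0.38 to 0.75 with 3 other scalings, under which 0 to 4 rose). These were ATP5F1B, of the ATP synthase, with 339.9, 232.5 and 319 FPKM with cadmium and 1203, 771 and 596 FPKM with DES and cadmium, UQCRC1 with 73.2, 52.7 and 52.8 FPKM with cadmium and 251, 125 and 122 FPKM with both, COX5A with 27.4, 21 and 27.9 FPKM with cadmium and 62.9, 55.9 and 49.1 FPKM with both, and IDH3B of the citric acid cycle. Without replicate 2 of DES with cadmium 0 of the 30 passed, with a median of 0.79. Of 31 glycolysis and hypoxia genes tested, 5 rose and 0 fell (16.1% called), with a median log2 fold change of 0.50 (0.06 to 0.51 with 3 other scalings, under which 2 to 5 rose). TPI1 read 71.5, 46.7 and 46.2 FPKM with cadmium and 285, 149 and 187 FPKM with DES and cadmium (log2 fold change 1.89 ± 0.34 SE, limma adjusted p = 0.0284), and GPI 53.7, 42.1 and 43.2 FPKM with cadmium and 173, 112 and 164 FPKM with both. GAPDH, often used as a reference gene, read 549.7, 396 and 301 FPKM with cadmium and 2361, 864 and 1472 FPKM with DES and cadmium (log2 fold change 1.84 ± 0.46 SE, limma adjusted p = 0.0464). All 5 called members, TPI1, GAPDH, GPI, PKM and PFKL, are enzymes of glycolysis. Of 32 proteasome genes tested, 3 rose and 0 fell (9.38% called), with a median log2 fold change of 0.66 (0.28 to 0.67 with 3 other scalings, under which 0 to 4 rose), namely PSMB6, PSMD8 and PSMA7.

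ESRRB, the receptor that DES was meant to inhibit, and most genes that the study followed read near 0. ESRRB had 6, 31 and 12 fragments with cadmium and 9, 2 and 1 with DES and cadmium, at most 0.257 FPKM. ESRRG, its relative, read 0.234 to 0.534 FPKM with cadmium and 0.0529 to 0.146 FPKM with DES and cadmium. A list of 13 genes, of the 3 ESRR receptors, genes that the study followed by PCR and the reference RPLP0, had 3 members past the filter. RPLP0, a ribosomal stalk protein, read 295, 242 and 257 FPKM with cadmium and 1002, 547 and 631 FPKM with DES and cadmium (log2 fold change 1.41 ± 0.34 SE, limma adjusted p = 0.0416). KLF4, a pluripotency factor, read 6.79, 13 and 14.9 FPKM with cadmium and 5.95, 7.31 and 11 FPKM with DES and cadmium (log2 fold change -0.48 ± 0.38 SE, limma adjusted p = 0.401). ESRRA read 23.1, 31.1 and 33.6 FPKM with cadmium and 14.8, 38.7 and 16.6 FPKM with DES and cadmium (log2 fold change -0.45 ± 0.40 SE, limma adjusted p = 0.459). In KLF4 and ESRRA the groups overlapped. ESR1, the estrogen receptor alpha, had 2, 12 and 28 fragments with cadmium and 0, 2 and 2 with DES and cadmium, at most 0.123 FPKM. The cadmium libraries of ESR1 varied widely, from 0.0079 FPKM, below the 0.0104 FPKM of the highest library with both, so that the groups overlapped. Like ESRRB it was below the filter, and no test is given. SOX2, NANOG, POU5F1, IGF1, DPT, SFRP2 and PRL read at most 0.247 FPKM in any of the 6 libraries, and changes in them were not detectable at this depth.

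PMEPA1, ELK4 and NRIP1, genes of the hormone response lists, fell. PMEPA1, ELK4 and TSC22D3 belong to a list that is not reported here and are given as single genes, not as a result about that list. PMEPA1, a membrane protein that restrains TGF-beta signalling, read 47.8, 54.2 and 39.2 FPKM with cadmium and 14.9, 9.88 and 13.4 FPKM with DES and cadmium (log2 fold change -1.89 ± 0.26 SE, limma adjusted p = 0.0269). ELK4, an ETS factor, read 8.97, 11.9 and 7.61 FPKM with cadmium and 2.04, 4.12 and 4.62 FPKM with DES and cadmium, and TSC22D3, a leucine zipper protein, rose. Of 17 estrogen response genes tested, 0 rose and 1 fell (5.88% called), with a median log2 fold change of 0.19 (-0.14 to 0.36 with 3 other scalings, under which 0 to 1 rose). The fall was in NRIP1, a corepressor of nuclear receptors, with 6.29, 12.2 and 12.9 FPKM with cadmium and 2.2, 3.85 and 3.48 FPKM with DES and cadmium. The libraries of the groups were apart in PMEPA1, ELK4 and NRIP1.

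Genes of MAP kinase signalling were called in both directions. Of 22 AP-1 and immediate early genes tested, 2 rose and 4 fell (27.3% called), with a median log2 fold change of -0.12 (-0.46 to -0.11 with 3 other scalings). EGR4, IER3, IER2 and KLF2 fell, and DUSP1 and IER5 rose. EGR4 passed the filter only through the cadmium libraries, so its call is no support. Of the 22 genes, 2 passed through 1 group only, and the other 20 had a median of -0.07. IER3, an immediate early regulator of survival, read 180.5, 266 and 89.1 FPKM with cadmium and 53.5, 13.9 and 17.4 FPKM with DES and cadmium (log2 fold change -2.78 ± 0.59 SE, limma adjusted p = 0.0358). DUSP1, a phosphatase of nuclear MAP kinases, read 5.83, 16.9 and 12.2 FPKM with cadmium and 121, 31.3 and 50 FPKM with DES and cadmium (log2 fold change 2.42 ± 0.57 SE, limma adjusted p = 0.0408). Of 17 MAP kinase feedback genes tested, 1 rose and 3 fell (23.5% called), with a median log2 fold change of -0.34 (-0.68 to -0.33 with 3 other scalings, under which 1 to 2 rose). Without 1 member that passed the filter through 1 group only the median was -0.63. DUSP6, the phosphatase of ERK in the cytoplasm, read 21.5, 24.8 and 19.7 FPKM with cadmium and 4.82, 2.87 and 5.84 FPKM with DES and cadmium (log2 fold change -2.31 ± 0.31 SE, limma adjusted p = 0.0269). SPRED2, an inhibitor of RAF activation, read 36.4, 44.3 and 57.6 FPKM with cadmium and 15.5, 15.6 and 15.4 FPKM with DES and cadmium, and SPRY4 fell with them. DUSP1 is the member of this list that rose.

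The receptors upstream showed no call. Of 8 ERBB receptors, ligands and regulators tested, 0 rose and 0 fell (0% called), with a median log2 fold change of 0.11 (-0.22 to 0.16 with 3 other scalings), with 2 at an unadjusted p under 0.05 in limma. ERBB2 read 121, 100.3 and 99.4 FPKM with cadmium and 125, 136 and 110.5 FPKM with DES and cadmium (limma adjusted p = 0.566), and its log2 fold change of 0.21 turned to -0.13 with total-fragment scaling and -0.55 with quantile normalization. ERRFI1, an inhibitor of ERBB kinases, read 16, 66.6 and 80.5 FPKM with cadmium and 18.4, 20.6 and 24.3 FPKM with DES and cadmium. Of 23 TGF-beta, Notch and CCN genes tested, 1 rose and 1 fell (8.7% called), with a median log2 fold change of -0.31 (-0.64 to -0.30 with 3 other scalings, under which 1 to 2 fell). ID3, an inhibitor of DNA binding by helix-loop-helix factors, read 4.53, 5.06 and 4.81 FPKM with cadmium and 78.7, 14.7 and 26.4 FPKM with DES and cadmium (log2 fold change 2.68 ± 0.56 SE, limma adjusted p = 0.034). TGFBR1, a receptor kinase of TGF-beta, read 2.72, 4.88 and 3.33 FPKM with cadmium and 0.454, 0.875 and 1.33 FPKM with DES and cadmium.

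Cell cycle genes varied most with the libraries named above. Of 49 G2/M and mitosis genes tested, 0 rose and 0 fell (0% called), with a median log2 fold change of 0.41 (0.10 to 0.55 with 3 other scalings), with 2 at an unadjusted p under 0.05 in limma. Summed over the list, cadmium libraries ranged from 93.9 to 711 FPKM and DES with cadmium libraries from 125 to 1510 FPKM. The median was -1.09 without replicate 3 of cadmium, 1.93 without replicate 2 of DES with cadmium and 0.57 without both. Of 48 G1/S and replication genes tested, 1 rose and 0 fell (2.08% called), with a median log2 fold change of 0.96 (0.63 to 1.03 with 3 other scalings, under which 0 to 1 rose). This median was 1.6 without replicate 1 of cadmium. The rise was SLBP, which binds the stem-loop of histone mRNA, with 27, 17.6 and 39.7 FPKM with cadmium and 76.7, 58.4 and 75.9 FPKM with DES and cadmium. Among histone genes, of 20 histone cluster genes tested, 5 rose and 0 fell (25% called), with a median log2 fold change of 0.65 (0.24 to 0.66 with 3 other scalings, under which 1 to 5 rose). HIST1H2BJ read 4.28, 5.33 and 2.18 FPKM with cadmium and 20.8, 19.9 and 29.1 FPKM with DES and cadmium, H1F0, a linker histone made outside S phase, 219, 140 and 80.2 FPKM with cadmium and 618, 416 and 839.8 FPKM with both, and HIST1H1C 139, 120.1 and 291 FPKM with cadmium and 651, 759 and 503 FPKM with both. In all 3 the libraries with DES were above those without.

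Of 25 CDK inhibitors and p53 targets tested, 3 rose and 2 fell (20% called), with a median log2 fold change of 0.61 (0.30 to 0.77 with 3 other scalings, under which 1 to 3 rose and 1 to 2 fell). Leaving out replicate 1 of cadmium gave a median of 0.37. CDKN2A, the locus of p16, read 2.44, 1.83 and 2.05 FPKM with cadmium and 12, 4.33 and 9.2 FPKM with DES and cadmium, and GADD45B, a stress sensor, 6.63, 17.1 and 21.5 FPKM with cadmium and 73.3, 35.8 and 69.3 FPKM with both. TP53INP1, a p53-induced nuclear protein, read 33.6, 23.6 and 19.3 FPKM with cadmium and 2.32, 6.67 and 7.57 FPKM with DES and cadmium (log2 fold change -2.32 ± 0.47 SE, limma adjusted p = 0.0332), and ZMAT3, also a target of p53, fell too. Of 12 tubulin genes tested, 1 rose and 1 fell (16.7% called), with a median log2 fold change of 0.40 (0.07 to 0.41 with 3 other scalings, under which 1 to 2 fell). TTC5, which triggers decay of tubulin mRNA, read 0.997, 0.491 and 0.483 FPKM with cadmium and 4.45, 3.4 and 3.99 FPKM with DES and cadmium (log2 fold change 2.48 ± 0.38 SE, limma adjusted p = 0.0269), and TUBD1, delta-tubulin, 3.73, 5.17 and 5.72 FPKM with cadmium and 1.4, 0.931 and 1.16 FPKM with both. Of 13 BCL2 family genes of apoptosis tested, 1 rose and 0 fell (7.69% called), with a median log2 fold change of 0.63 (0.30 to 0.64 with 3 other scalings), namely BAD, a promoter of cell death, with 17.4, 13.7 and 16.3 FPKM with cadmium and 60.2, 40.5 and 28.5 FPKM with DES and cadmium. Of 30 autophagy and lysosome genes tested, 0 rose and 0 fell (0% called), with a median log2 fold change of 0.04 (-0.29 to 0.05 with 3 other scalings, under which 0 to 3 fell), with 7 at an unadjusted p under 0.05 in limma. SQSTM1, an autophagy receptor, read 83.5, 129 and 276 FPKM with cadmium and 182, 212 and 84.2 FPKM with DES and cadmium, and CTSD, a lysosomal protease, 84, 91.6 and 148 FPKM with cadmium and 134, 152 and 94.8 FPKM with both, with overlapping groups.

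The shares of lipid synthesis genes called were near the 11.6% of all genes. Of 24 cholesterol synthesis genes tested, 2 rose and 0 fell (8.33% called), with a median log2 fold change of 0.20 (-0.19 to 0.21 with 3 other scalings, under which 0 to 3 rose). EBP, a sterol isomerase, read 22, 14.9 and 7.07 FPKM with cadmium and 64.4, 35.4 and 73.7 FPKM with DES and cadmium (log2 fold change 2.05 ± 0.47 SE, limma adjusted p = 0.039), and CYP51A1, the lanosterol demethylase, 0.967, 1.06 and 1.49 FPKM with cadmium and 3.21, 2.92 and 7.14 FPKM with both. Of 13 fatty acid synthesis genes tested, 1 rose and 0 fell (7.69% called), with a median log2 fold change of 0.23 (-0.11 to 0.23 with 3 other scalings, under which 0 to 1 fell). ACSS2, which makes acetyl-CoA from acetate, read 5.38, 4.27 and 5.92 FPKM with cadmium and 21.5, 15.8 and 44.1 FPKM with DES and cadmium (log2 fold change 2.24 ± 0.40 SE, limma adjusted p = 0.0284). The control means of EBP, CYP51A1 and ACSS2 were 42.4, 3.13 and 16.5 FPKM, above all cadmium libraries. Of 6 cholesterol efflux genes under LXR tested, 0 rose and 0 fell (0% called), with a median log2 fold change of 0.45 (0.12 to 0.46 with 3 other scalings, under which 0 to 1 fell), with 3 at an unadjusted p under 0.05 in limma. NR1H2, an LXR, read 19.8, 22.9 and 28.4 FPKM with cadmium and 46.9, 31.4 and 31.5 FPKM with DES and cadmium, and MYLIP, which degrades the LDL receptor, 10.3, 11.1 and 14 FPKM with cadmium and 14.7, 15.9 and 19.4 FPKM with both.

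Among genes of the luminal epithelium, of 20 keratins and luminal factors tested, 0 rose and 4 fell (20% called), with a median log2 fold change of -0.12 (-0.63 to -0.11 with 3 other scalings). TFAP2B, a luminal transcription factor, read 94.8, 77.9 and 43.9 FPKM with cadmium and 22.5, 22 and 21.1 FPKM with DES and cadmium (log2 fold change -1.65 ± 0.32 SE, limma adjusted p = 0.0312). TRPS1, a GATA-type repressor, read 25.6, 35.3 and 22 FPKM with cadmium and 11.8, 7.51 and 14.8 FPKM with DES and cadmium, and CLDN4, a tight junction protein, 55.5, 82.9 and 39.5 FPKM with cadmium and 28.5, 16.3 and 11.6 FPKM with both. GRHL2 was the other member that fell. Without replicate 2 of DES with cadmium 1 of the list fell, at a median of 0.06. Of 23 interferon response genes tested, 2 rose and 0 fell (8.7% called), with a median log2 fold change of 0.34 (0.00 to 0.35 with 3 other scalings, under which 0 to 2 rose). IRF7, a factor of interferon signalling, read 64.9, 67.2 and 35.6 FPKM with cadmium and 164, 131 and 145 FPKM with DES and cadmium, and OASL 2.03, 1.76 and 1.89 FPKM with cadmium and 6.91, 4.14 and 4.45 FPKM with both.

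The study's own lists of genes changed by calcium, cadmium and its agonist were chosen on libraries that include the cadmium group and the controls, so their direction here is not independent evidence. Of 35 genes of the up-regulated list tested, 0 rose and 2 fell (5.71% called), with a median log2 fold change of -1.07 (-1.41 to -0.71 with 3 other scalings, under which 1 to 3 fell), with 25 of the 35 fold changes negative. Of the 35, 10 passed the filter through 1 group only, and the other 25 had a median of -0.65. BEST1, a chloride channel that passed the filter only through cadmium, read 0.757, 1.4 and 4.39 FPKM with cadmium and 0.125, 0.218 and 0.16 FPKM with DES and cadmium, and FUT3, a fucosyltransferase, 6.88, 10.7 and 18.8 FPKM with cadmium and 2.64, 4.59 and 2.36 FPKM with both. Of 34 genes of the down-regulated list tested, 1 rose and 0 fell (2.94% called), with a median log2 fold change of 0.67 (0.34 to 0.90 with 3 other scalings, under which 0 to 1 rose), with 28 of the 34 positive. The rise was PRRT1B, with 1.59, 0.525 and 0.696 FPKM with cadmium and 3.79, 2.47 and 7.3 FPKM with DES and cadmium. The median level of the down-regulated list was -0.74, -1.71 and -2.70 log2 units from control in the cadmium libraries and -0.38, -2.32 and -0.27 in those with DES and cadmium, lowest in the libraries that lacked mitotic transcripts.

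**Figure D4:**
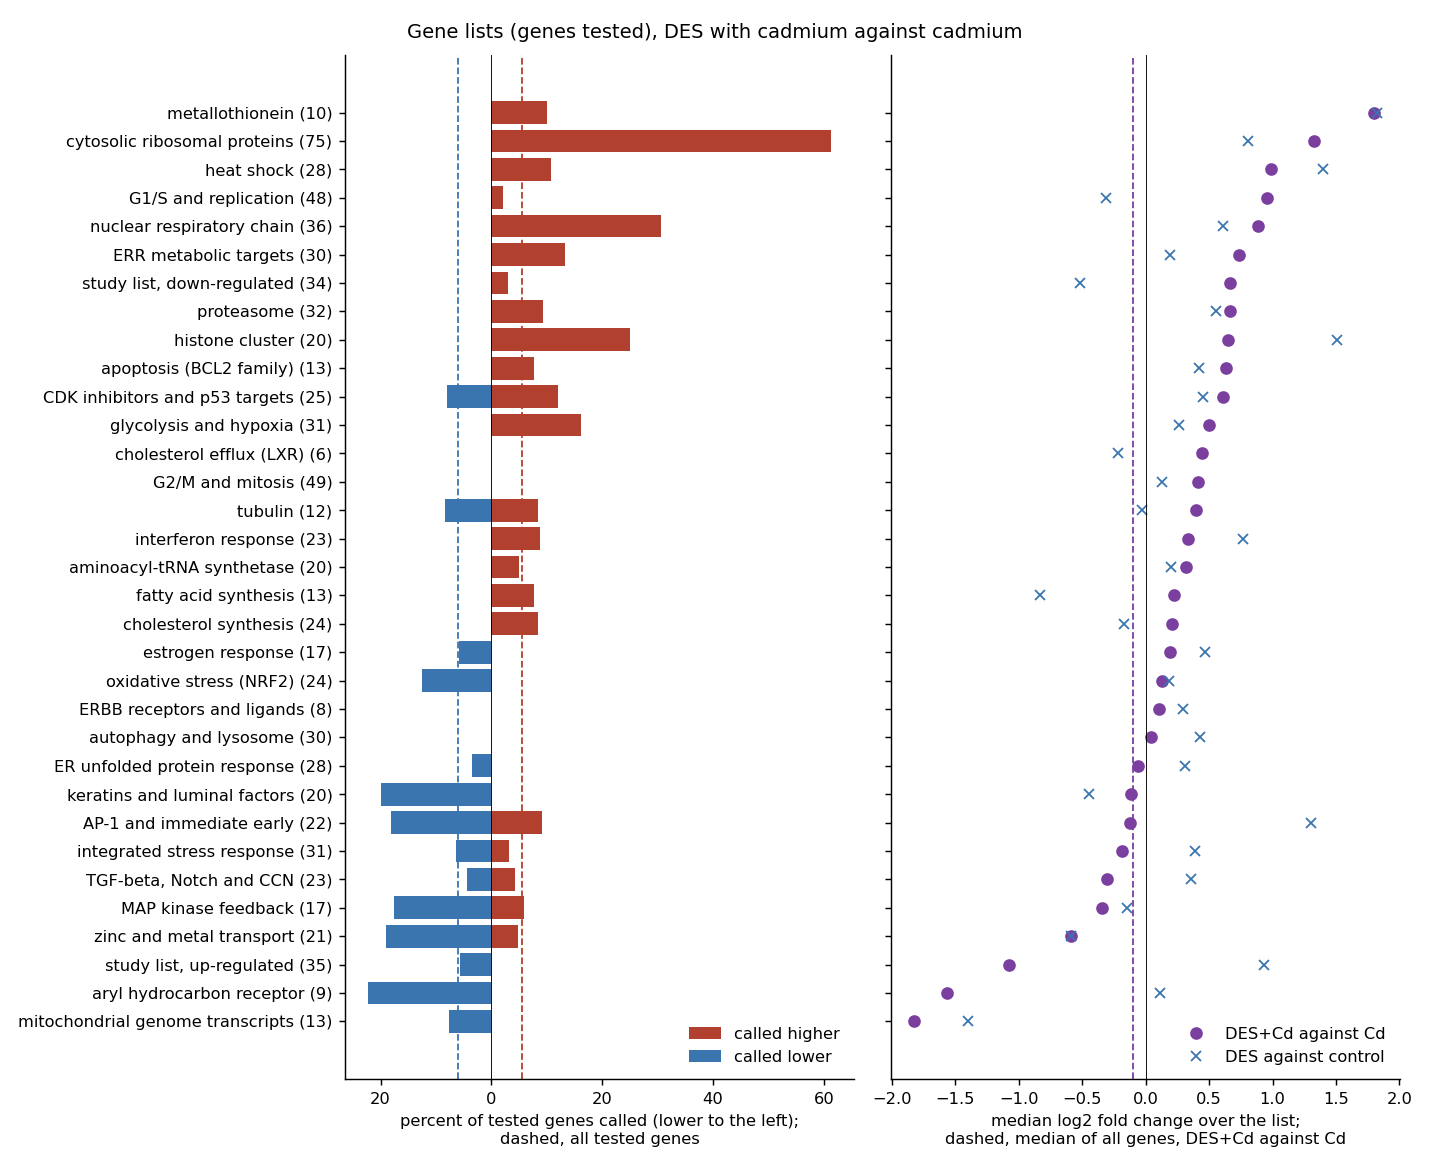
Left, percent of the tested genes of each list with at least 5 genes tested called higher (red) or lower (blue) in DES with cadmium against cadmium, with the share of all tested genes dashed (5.53% and 6.04%). Right, median log2 fold change of each list for the same comparison (dots) and for DES against control (crosses), which for the 2 study lists shares the controls they were chosen on. The metallothionein values include the 4 members that passed the filter only through DES with cadmium. Those of the AP-1 and immediate early list include EGR4, and those of the up-regulated study list BEST1, which passed only through cadmium. Among the lists plotted, ribosomal and nuclear respiratory chain genes stand furthest above the share of all genes called higher.

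The fold changes of DES pointed mostly the same way with and without cadmium, in comparisons that share no library. Across 14624 genes, which are not independent replicates, the fold changes of DES with cadmium against cadmium and of DES against control had a Pearson correlation of 0.521. Of 1692 called genes with both values, 1550 (91.6%) had the same sign without cadmium, beside 71% of all genes. DES against control called 4161 of 14624 genes (28.5%). The 891 genes called in both were 52.7% of the calls with cadmium and 21.4% of those without, and 873 of them shared the direction. RGS16 read 1.27, 1.66 and 0.723 FPKM in the control and 15.1, 14.4 and 20.8 FPKM with DES, a log2 fold change of 3.73 (limma adjusted p = 0.000528). SERPINH1 read 20.2, 20 and 23.9 FPKM in the control and 225, 239.9 and 251 FPKM with DES, and RAB3A 6.94, 6.35 and 7.22 FPKM in the control and 86.4, 99.1 and 99.4 FPKM with DES. For DES with calcium against calcium, 5112 of 14551 genes (35.1%) were called, and 1541 of 1683 (91.6%) had the same sign, beside 71.4% of all genes.

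**Figure D5:**
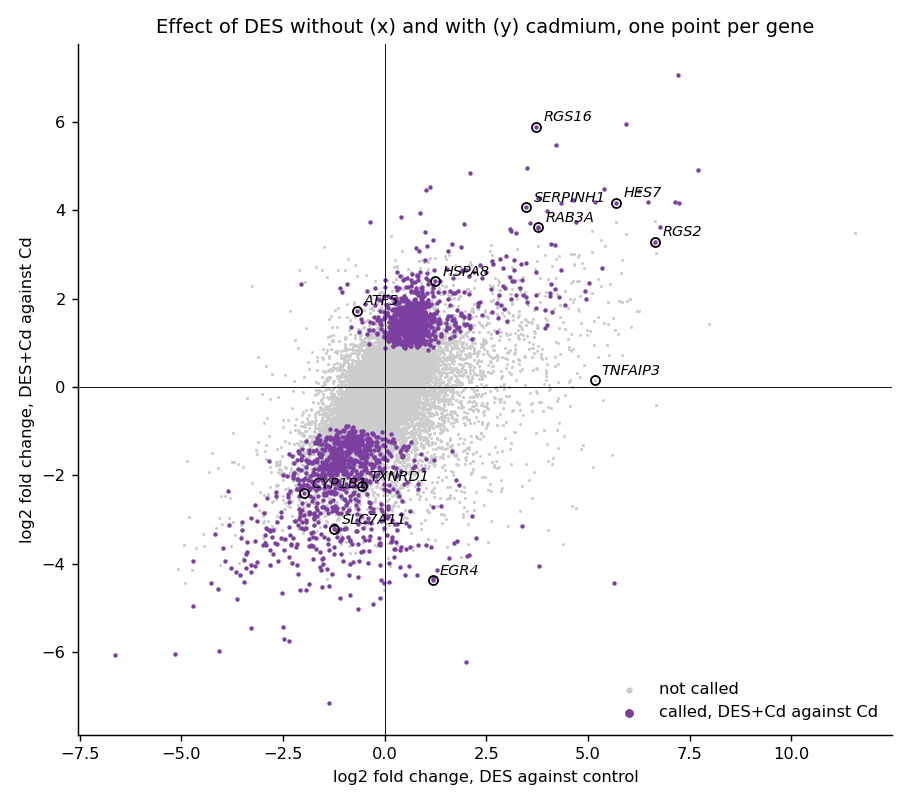
Log2 fold change of each gene for DES against control (x) and for DES with cadmium against cadmium (y), with the genes called in the latter in purple and some named genes circled. Most purple points lie to the upper right and lower left, and TNFAIP3 lies far to the right near 0 on the y axis.

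Whether the effect of DES differed with cadmium was tested by the interaction in a fit over the 12 libraries of control, DES, cadmium and DES with cadmium, and so shares libraries with the comparison above. It called 139 of 14660 genes (0.948%). The log2 fold change of DES was higher with cadmium in 29 and lower in 110, which includes larger falls, as in C1GALT1C1 (-3.13 with and -1.23 without cadmium). The filter used only the cadmium and DES with cadmium libraries, and 7 of the 139 read 0 in all libraries with DES and cadmium. Genes that passed only through cadmium had to read lower with DES there, and their number among the 110 was not counted. Of the 139 genes 83 were protein-coding, and the 2 effects had opposite signs in 103. TNFAIP3, an inhibitor of NF-kappaB signalling, read 0.0674, 0.0375 and 0.024 FPKM in the control and 4.9, 4.43 and 5.63 FPKM with DES. It read 0.446, 0.711 and 0.964 FPKM with cadmium and 0.862, 0.8 and 0.654 FPKM with DES and cadmium (interaction adjusted p = 0.0031, limma). In the comparison with cadmium its limma adjusted p was 0.836, and without cadmium 0.000144. In ATF5 the signs were opposite, with 16.5, 7.45 and 11.6 FPKM in the DES libraries beside the values given above (interaction adjusted p = 0.0285, limma). Among genes named after their values were seen, SOCS1, an inhibitor of cytokine signalling, read a mean of 2.58 FPKM in the control, 41.9 with DES, 3.87 with cadmium and 9.87 with both (interaction adjusted p = 0.0229, limma). KLF10, a TGF-beta induced factor, read 4.3, 43.8, 9.77 and 15 FPKM in the same order (interaction adjusted p = 0.0148, limma), and MARVELD1 9.99, 5.31, 1.36 and 6.9 FPKM (interaction adjusted p = 0.0162, limma). The interaction count ranged from 11 without replicate 2 of DES to 326 without replicate 2 of DES with cadmium. It was 15 to 39 without any single control library, replicate 2 or 3 of cadmium or replicate 3 of DES, and 280 without replicate 1 of cadmium.

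Length, abundance and biotype of the called genes are given as description, since FPKM values and with them the filter and the test involve length and abundance. Called-higher genes were shorter and more abundant, with a median length of 2601 bases and a median of 20.9 FPKM, against 4166 bases and 2.98 FPKM for called-lower genes and 3950 bases and 4.33 FPKM for all. Protein-coding genes made up 82.1% of the rises, 63.1% of the falls and 75.2% of all. Of 909 antisense genes tested 25 rose and 93 fell, and of 569 lincRNA genes 13 rose and 63 fell. Of all genes tested, 5.53% rose and 6.04% fell. Genes that passed the filter only through the cadmium libraries had to read lower with DES, and their number in these classes was not counted. Of 684 genes under 200 bases, which FPKM measures poorly, 14 rose (2.05%) and 74 fell (10.8%). By length, the share called higher was 12.1% from 1000 to 2000 bases and 1.71% from 8000 bases upward.

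On the genome, protein-coding genes that rose spanned a median of 10381 bases, those that fell 34006 and those not called 31776, in the coordinates of the files. In the GENCODE canonical transcripts 14.5% of the falls had at most 2 exons, beside 6.62% of the rises and 6.31% of the genes not called. Zinc finger genes with a ZNF symbol, a family chosen after its values were seen, gave 53 falls (14.4%) and 6 rises (1.63%) of 368 tested, beside 6.04% and 5.53% of all genes. Of their fold changes 22.3% were positive, beside 46.5% of all, with a median log2 fold change of -0.84. Against control DES alone gave them a median of -0.37. Genes with an SLC symbol, the solute carriers, gave 31 falls (16%) and 7 rises (3.61%) of 194, beside the same shares of all genes. How many ZNF and SLC genes passed the filter only through the cadmium libraries, and so had to read lower with DES, was not counted. Of the promoter elements, the metal response core lay in 38% of the windows of called-higher genes, 42.9% of called-lower genes and 39.8% of genes not called. For the heat shock element the shares were 4.22%, 4.58% and 4.59%, for AAGGTCA, the estrogen-related receptor element, 2.81%, 1.74% and 2.41%, and for the CHR element 6.15%, 8.71% and 9.58%.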

How the data were processed

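Poly-A mRNA of MDA-MB-453 cells was sequenced in 21 libraries of 7 groups (n = 3 each). The deposited table holds FPKM values per gene that the authors made from paired-end reads aligned to GRCh38.p14. The submitters' processing notes name HISAT2 2.0.5 and featureCounts 1.5.0-p3, without their roles. Each FPKM value came out as a whole number of fragments (100% within 0.05), from which the fragments on genes were taken. The annotation release is not given in the sources used here, and whether counting used strand is ambiguous, so antisense and overlapping genes cannot be told apart.

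Genes with a mean of at least 0.5 FPKM over the 6 libraries were tested on log2(FPKM + 0.1) with limma 3.58.1 (R 4.3.3, trended prior), two-sided, with Benjamini-Hochberg adjustment over all genes tested, and called at an adjusted p under 0.05. An exact permutation test of 3 against 3 cannot go below p = 0.1 and was not used. The interaction was fitted over 12 libraries. Alternatives changed the pseudocount, filter, scaling, weights, block and libraries. A count model on fragments recovered from FPKM, planned as an alternative, is not reported, since the deposited unit is FPKM. Scripts in Python 3.11.15 and R were tested on simulated data. Ratios of low genes carry 95% counting intervals, which cover counting error only, and limits of 3 fragments per library.

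Genes were named by rule as the 10 largest called rises and the 10 largest falls among protein-coding genes of at least 200 bases, 1 FPKM and non-overlapping groups, the 3 largest called members of each list (the 2 most abundant where none was called), all study targets and metallothioneins, and the 3 smallest interaction p-values. A gene that this rule names is not reported here, nor is a list that holds it. The members, lists and tests were chosen with earlier results of these data known.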

Additional observations from a re-analysis of the deposited data

Results flagged for a closer look

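The effect of DES differed with cadmium by the interaction test for 139 genes, as described above. Among the genes named by rule these were the following, with limma adjusted p of the interaction. EGR4, which passed the filter only through the cadmium libraries, had 0.0223, with opposite signs of its fold change with and without cadmium. It read 0.0521, 0 and 0.0764 FPKM in the control and 0.112, 0.225 and 0.356 FPKM with DES, so that its fold change without cadmium rests on values near 0 and was not called (limma adjusted p = 0.173). C1GALT1C1 had 0.0273, MT1E 0.0192 and ATF5 0.0285. The smallest interaction p-values belonged to SNORD72 (0.00135), TNFAIP3 (0.0031) and FARSA-AS1 (0.00355). SNORD72 and FARSA-AS1 passed the filter only through the cadmium libraries, where they are high, so that their tests are no support. SNORD72, a small nucleolar RNA, had 3 fragments in each cadmium library and 0 in each library with DES and cadmium, at the limit of detection. FARSA-AS1 had 8, 10 and 5 fragments with cadmium and 0 with DES and cadmium, at least 2.17-fold lower. MT1E read 0.118, 0 and 0 FPKM in the control libraries, so that its fold change without cadmium rests on values near 0. Among genes named after their values were seen, HSPA6 had 0.0192, IRF1 0.00949, KLF10 0.0148, MARVELD1 0.0162 and SOCS1 0.0229. HSPA6 read a mean of 0.212 FPKM in the control and 966 FPKM with DES, so that its fold change without cadmium also starts from values near 0. Groups of 3 libraries are too small for a test of single outlying libraries.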

How the results depend on the processing

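With single libraries left out, the called genes ranged from 0 to 1484 (higher 0 to 611, lower 0 to 914), those of DES against control from 1831 to 4838 and those of the interaction from 11 to 326. Without replicate 3 of cadmium and replicate 2 of DES with cadmium together, 18 were called (13 higher, 5 lower). Without a filter on low values, 22 of 37528 genes were called (11 higher, 11 lower), with 6567 at an unadjusted p under 0.05, and with a mean of at least 2 FPKM 829 were higher and 577 lower (59% higher). Total-fragment scaling gave 425 higher. With all 7 groups in one fit 5637 were called (2653 higher, 2984 lower). With library weights 8467 were called (3937 higher, 4530 lower), the weights being 8.58 for replicate 2 of cadmium, 3.89 for replicate 3 of DES with cadmium and at most 0.748 for the rest, and their estimation stopped short of its tolerance. With the replicate number as a block 757 were called (400 higher, 357 lower). The deviations of same-numbered libraries of cadmium and DES with cadmium correlated at 0.261, -0.163 and -0.147, so pairing was not borne out there. For the groups that the interaction adds they were 0.468, 0.11 and 0.292 (DES with cadmium and DES), 0.06, 0.058 and 0.146 (cadmium and control) and -0.017, 0.018 and -0.068 (DES and control), all 3 above 0.1 in the first of these alone. The interaction called 232 with a pseudocount of 1, 62 without filter, 48 from 2 FPKM, 756 with 7 groups, 6590 with weights and 240 with the block. The planned limma-voom alternative is not reported because a count model was not used on FPKM values. The cause of these shifts was not tested, except that leaving out libraries or the filter changes the number of samples or genes tested.

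Fold changes that turned sign belonged to genes not called. With total-fragment scaling they were MT1F (-0.02), ERBB2 (-0.13), SQSTM1 (-0.29), CTSD (-0.08) and TNFAIP3 (-0.14), with quantile normalization MT1F (-0.65), MT1X (-0.24), ERBB2 (-0.55), SQSTM1 (-0.69) and CTSD (-0.48), and with weights SQSTM1 (-0.44) and TNFAIP3 (-0.04). MT1E turned to 0.86 without the pair. With single libraries left out the log2 fold changes ranged for CDC20 -1.09 to 3.36, MT1E -1.33 to 0.61, MT1F -0.58 to 1.38, MT1X -0.42 to 1.74, MT4 -0.13 to 3.76, SQSTM1 -0.35 to 0.51, TNFAIP3 -0.10 to 0.38, UBE2C -0.48 to 3.63. Of the other values of named genes, 1232 kept side and direction, 617 lost the call and 16 gained it, and 621 list medians moved by less than the spread and 45 by more.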
